A study of Mus musculus with 4 samples.

Results

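The 8 genes described here encode proteins that make or handle coenzyme Q in mitochondria: Coq2, Coq3, Coq5, Coq7, Coq8a (also named Adck3), Coq9, Coq10a and Coq10b. They were chosen by name as members of this pathway, and all 8 were found by their Ensembl identifiers among the 21552 genes of the counts table. The hearts were those of C57BL/6 mice. Tissue from the remote area, away from the infarct, was taken from 2 infarcted mice 7 days after the left anterior descending artery, a coronary artery, had been tied off for good to cause a myocardial infarction. It was set against heart tissue of 2 uninjured mice of the same strain, labelled with the same remote area and the same time point. The labels name no sex, age or sham operation.

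Coenzyme Q, or ubiquinone, is a lipid of the mitochondrial inner membrane with a redox-active ring and a long isoprenoid tail. It carries electrons from complexes I and II and from other dehydrogenases to complex III, and heart muscle is among the tissues richest in it. The tail is built from mevalonate pathway units, joined to a ring derived from tyrosine by COQ2, and the ring is then methylated and hydroxylated by a group of COQ proteins that assemble on the matrix side of the inner membrane. COQ10A and COQ10B are not synthetic enzymes. They are coenzyme Q binding proteins of the START lipid-binding fold, and their yeast counterpart is needed for coenzyme Q to work in respiration.

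The 4 libraries held between 35715115 and 70885393 counts, and the members had between 697 and 43760 counts in each. All 10 cardiomyocyte markers were measured and none was at 0. Their summed level was 37184 and 33385 CPM, counts scaled to a common library size, in infarcted hearts, against 55045 and 66516 CPM in uninjured hearts, and 5 of the 10 were called lower. Calls are defined in the next paragraph, and over all genes tested 14.6% were called lower and 18.3% higher. Of the 9 fibroblast and matrix markers 6 were called higher. Pdgfra, Dcn and Tcf21 were not called (log2 fold change, infarcted over uninjured, of 0.63, 0.66 and 0.31). The 9 summed to 8122 and 6546 CPM in infarcted hearts, against 855 and 821 CPM in uninjured hearts. Of the 7 macrophage markers 6 were called higher, at 306 and 347 CPM summed in infarcted hearts, against 118 and 86.7 CPM in uninjured hearts. The smooth muscle markers summed to 285 and 530.4 CPM in infarcted hearts, against 171 and 239 CPM in uninjured hearts, and 2 of 4 were called higher, a count of 4 without infarcted replicate 1 and of 0 without either uninjured heart. The erythroid markers summed to 75.0 and 38.2 CPM in infarcted hearts, against 133 and 97.6 CPM in uninjured hearts. Of these 5, 4 were called lower, a count of 1 without infarcted replicate 2, of 0 without either uninjured heart and of 0 with the length trend removed. Of the 6 endothelial markers DESeq2 called 1 and edgeR none, although 2 passed 0.05 there before adjustment. Without uninjured replicate 2, edgeR called 0 cardiomyocyte markers lower and 3 macrophage markers higher. The 5 atrial markers summed to 295 and 2009 CPM in infarcted hearts, against 88.8 and 49.5 CPM in uninjured hearts, and 2 of them, Sln and Mybphl, were at 0 in infarcted replicate 1. Mitochondrially encoded genes took 42.0% and 36.7% of counts in infarcted hearts, against 48.4% and 41.4% in uninjured hearts. The part of these differences in the results below was not tested. Without infarcted replicate 2, the library with the high atrial sum, edgeR called 6 of the 8 members and 8.83% of all genes lower.

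Of the 8 coenzyme Q genes, 7 were called lower in infarcted hearts, none was called higher, and Coq10b was not called. Calls were made by the edgeR quasi-likelihood test at a Benjamini-Hochberg adjusted p below 0.05 over 13905 genes, of which 14.6% were called lower and 18.3% higher. The same 7 genes had both infarcted libraries below both uninjured libraries, an arrangement found in 33.8% of all genes tested. The median log2 fold change, infarcted over uninjured, was -1.03 over the 8 members and 0.02 over all genes. In these bulk samples, fewer cells of a type and less RNA per cell cannot be told apart. CPM below are on library sizes scaled by edgeR's TMM factors, and in each pair of values replicate 1 precedes replicate 2.

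Coq2, on the minus strand of chr5:100654723-100675140 (GRCm38), encodes the prenyltransferase that joins the isoprenoid tail to the ring. Coq2 stood at 16.7 and 16.6 CPM in infarcted hearts and at 31.7 and 40.7 CPM in uninjured hearts. The infarcted values lay close together and below both uninjured ones. The means were 16.7 ± 0.0719 CPM in infarcted and 36.2 ± 6.36 CPM in uninjured hearts (SD, n = 2 each). This was a 2.17-fold lower level, a log2 fold change of -1.12 ± 0.20 (SE; edgeR adjusted p = 0.00126).

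The methyltransferases Coq3 and Coq5 were both lower, Coq5 by less. Coq3 (plus strand of chr4:21879673-21912162) adds the O-methyl groups of the ring. Coq3 measured 22.2 and 21.0 CPM in infarcted hearts and 37.3 and 45.4 CPM in uninjured hearts, means of 21.6 ± 0.842 and 41.4 ± 5.69 CPM (SD, n = 2 each). The groups did not overlap, and the log2 fold change of Coq3 was -0.94 ± 0.19 (edgeR adjusted p = 0.00291), or 1.91-fold lower. Coq5 (plus strand of chr5:115279666-115296972) adds the C-methyl group. Coq5 measured 76.6 and 58.8 CPM in infarcted hearts and 105 and 110.2 CPM in uninjured hearts, means of 67.7 ± 12.5 and 108 ± 3.38 CPM (SD, n = 2 each). The 2 uninjured values of Coq5 nearly coincided, and infarcted replicate 1 was the nearer of the infarcted hearts to them. Its log2 fold change of -0.67 ± 0.20 (edgeR adjusted p = 0.0197), 1.59-fold lower, was the smallest among the 7 genes called. The Coq5 call was lost without infarcted replicate 2 (-0.52, edgeR adjusted p = 0.234), without uninjured replicate 1 (-0.71, edgeR adjusted p = 0.0734) and with library totals alone as the scale (-0.33, edgeR adjusted p = 0.205). It was also lost when the trend with transcript length was removed (-0.49, edgeR adjusted p = 0.0660). That setting called 6 members and 14.1% of all genes lower, with a member median of -0.86.

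Coq7 and Coq9 work as partners, and both were lower in infarcted hearts. COQ7 hydroxylates the ring at the next-to-last step and COQ9 is the lipid-binding protein that presents the substrate to it. Coq7 (minus strand of chr7:118509659-118533356) stood at 32.6 and 35.6 CPM in infarcted hearts and at 53.0 and 78.7 CPM in uninjured hearts. Its means were 34.1 ± 2.09 CPM in infarcted and 65.9 ± 18.1 CPM in uninjured hearts (SD, n = 2 each). The infarcted hearts were alike, and the uninjured hearts differed by -0.57 on the log2 scale, replicate 1 minus replicate 2, a wider gap on that scale than for any other member. The log2 fold change of Coq7 was -0.95 ± 0.21 (edgeR adjusted p = 0.00451), or 1.93-fold lower. Coq9 (plus strand of chr8:94838321-94854895) stood at 211 and 192 CPM in infarcted hearts and at 363 and 504 CPM in uninjured hearts, means of 202 ± 14.0 and 433 ± 99.6 CPM (SD, n = 2 each). Both infarcted values of Coq9 were below both uninjured values, with a log2 fold change of -1.10 ± 0.23 (edgeR adjusted p = 0.00298), 2.15-fold lower. Coq9 shares 38 exonic nt with Ciapin1 on the opposite strand, which had 28.3 and 29.4 CPM in infarcted hearts and 35.6 and 43.4 CPM in uninjured hearts. No source used here says that strand was kept, so reads from such shared bases cannot be told apart.

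Coq8a (minus strand of chr1:180165238-180199602) encodes an atypical kinase-like protein with ATPase activity that the assembly of the COQ proteins depends on, and it had the highest CPM of the members in every library. Coq8a measured 281 and 238 CPM in infarcted hearts and 516 and 697 CPM in uninjured hearts, means of 259.8 ± 30.4 and 607 ± 128 CPM (SD, n = 2 each). The higher infarcted value of Coq8a stayed 1.84-fold below the lower uninjured one. Its log2 fold change was -1.22 ± 0.23 (edgeR adjusted p = 0.00188), 2.33-fold lower. Coq8a shares 366 exonic nt with Cdc42bpa on the opposite strand. Cdc42bpa had 40.3 and 44.7 CPM in infarcted hearts and 37.4 and 30.7 CPM in uninjured hearts, and was not called (0.32 ± 0.19, edgeR adjusted p = 0.213).

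The coenzyme Q binding paralogs Coq10a and Coq10b did not move alike in these values. Coq10a (minus strand of chr10:128363100-128368997) stood at 119 and 79.1 CPM in infarcted hearts and at 201 and 264 CPM in uninjured hearts, means of 99.3 ± 28.5 and 233 ± 44.5 CPM (SD, n = 2 each). The groups were apart although the infarcted hearts differed from each other more than for most members, and the log2 fold change of Coq10a was -1.23 ± 0.24 (edgeR adjusted p = 0.00235), 2.35-fold lower. Coq10b (plus strand of chr1:55052770-55072702) stood at 30.4 and 20.1 CPM in infarcted hearts and at 23.4 and 19.8 CPM in uninjured hearts, means of 25.3 ± 7.25 and 21.6 ± 2.55 CPM (SD, n = 2 each). The groups of Coq10b overlapped, with infarcted replicate 1 highest and the other 3 hearts close together. Its log2 fold change was 0.23 ± 0.23 (edgeR adjusted p = 0.473), and its sign depended on 1 library, being -0.18 without infarcted replicate 1 (edgeR adjusted p = 0.732). Coq10b shares 343 exonic nt with E330011M16Rik on the opposite strand, which has no row of its own in the counts analysed here.

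**Figure D1:**
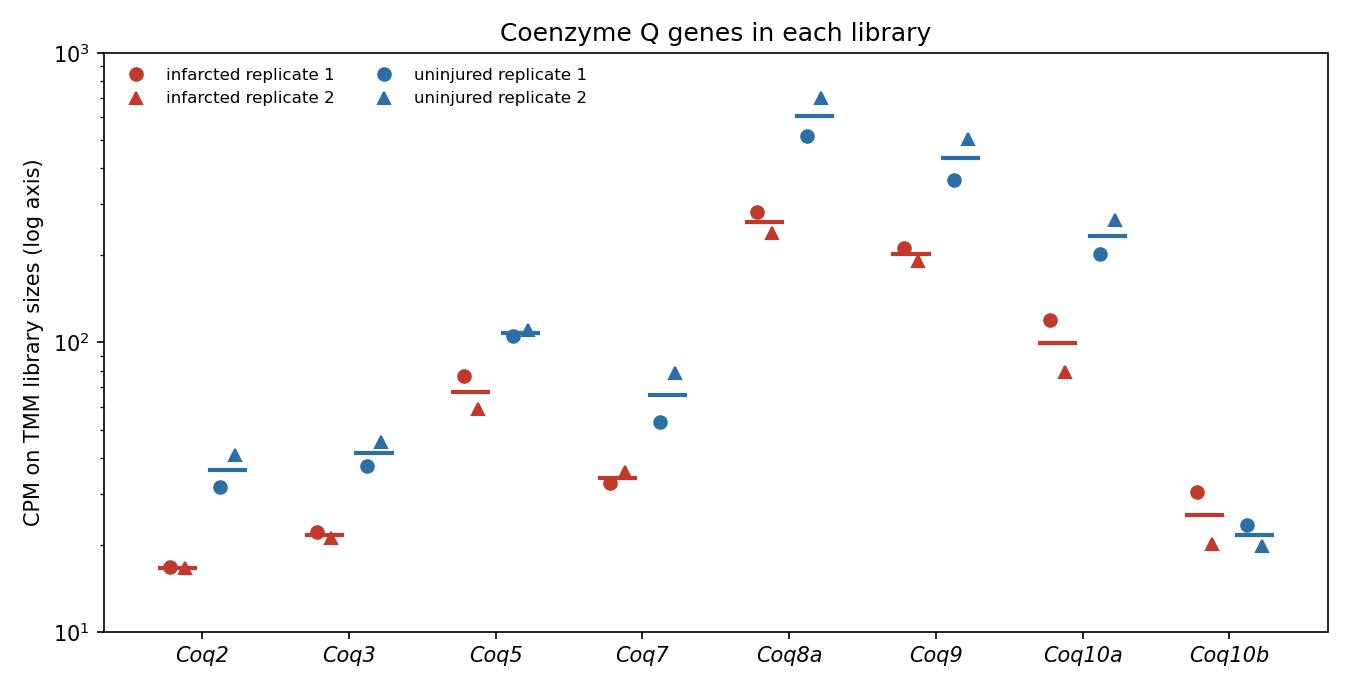
Level of each coenzyme Q gene in each library, in CPM on TMM library sizes on a log axis; red points are infarcted and blue points uninjured hearts, circles replicate 1 and triangles replicate 2, and bars are group means. Both infarcted points lie below both uninjured points for 7 genes, and the points of Coq10b overlap between 19.8 and 30.4 CPM.

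Levels of different genes were compared as CPM per kilobase of the longest annotated transcript, which need not be the form expressed. The order depends on this choice, as Coq8a was highest by CPM. Coq9 ranked first in both groups, with 118 and 107 CPM per kb in infarcted hearts and 203 and 282 CPM per kb in uninjured hearts. Coq10a followed with 83.3 and 55.2 CPM per kb in infarcted hearts and 140.4 and 184 CPM per kb in uninjured hearts. Coq8a had 69.9 and 59.2 CPM per kb in infarcted hearts and 128 and 173 CPM per kb in uninjured hearts, overlapping Coq10a within each group. Coq5, at 37.6 and 28.9 CPM per kb in infarcted hearts and 51.7 and 54.1 CPM per kb in uninjured hearts, overlapped no other member. The remaining 4 were lower, and their order differed between the groups. In infarcted hearts the mean levels were 11.9 CPM per kb for Coq10b, 11.1 for Coq7, 9.56 for Coq2 and 8.16 for Coq3, and the values of Coq10b spanned those of Coq7 and Coq2. In uninjured hearts the mean levels were 21.5 CPM per kb for Coq7, 20.8 for Coq2, 15.6 for Coq3 and 10.2 for Coq10b, and the values of Coq7 and Coq2 overlapped. Coq10b was thus last of the 8 in uninjured hearts and above Coq7, Coq2 and Coq3 by its mean in infarcted hearts, at a level of 14.3 and 9.51 CPM per kb in infarcted hearts and 11.1 and 9.35 CPM per kb in uninjured hearts. Library against library, the 8 genes summed to 791 and 661 CPM in infarcted hearts and to 1331 and 1760 CPM in uninjured hearts.

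The hearts of a group also differed from each other in these genes. In the uninjured hearts every member except Coq10b was higher in replicate 2, with a median log2 difference of replicate 1 minus replicate 2 of -0.38 over the members, against -0.05 over all genes tested. Among the infarcted hearts every member except Coq7 was higher in replicate 1, Coq2 by a log2 difference of only 0.0088, and the median was 0.19, against 0.0002 over all genes. Over the 10 cardiomyocyte markers the medians were 0.18 between the infarcted hearts and -0.20 between the uninjured hearts. Tnnt2 and Actn2 went the other way between the infarcted hearts, and Ttn, Ryr2 and Pln between the uninjured hearts. Infarcted first, the medians were 0.03 and 0.07 for fibroblast and matrix, -0.08 and 0.39 for macrophage, and 0.10 and 0.10 for endothelial markers. They were -1.08 and -0.41 for smooth muscle, -8.06 and -0.22 for tested atrial, and 0.99 and 0.48 for erythroid markers. The source of these differences was not tested. Within each group the members' differences thus mostly ran one way.

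Coq10a and Coq8a each have a paralog whose level can be set beside theirs. The share of Coq10b in the summed level of Coq10a and Coq10b, per kilobase, was 14.7% and 14.7% in infarcted hearts and 7.30% and 4.83% in uninjured hearts. Coq8b, the paralog of Coq8a, had 7.92 and 7.82 CPM in infarcted hearts and 5.66 and 7.74 CPM in uninjured hearts (0.23 ± 0.24, edgeR adjusted p = 0.486). Its share in the summed level of Coq8a and Coq8b was 3.88% and 4.50% in infarcted hearts and 1.55% and 1.57% in uninjured hearts. In both pairs the infarcted shares were above the uninjured ones, and with 2 hearts a group the two-sided exact permutation p was 0.333, the smallest this design can give. Reads that the counting could not assign between paralogs leave such shares uncertain.

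**Figure D2:**
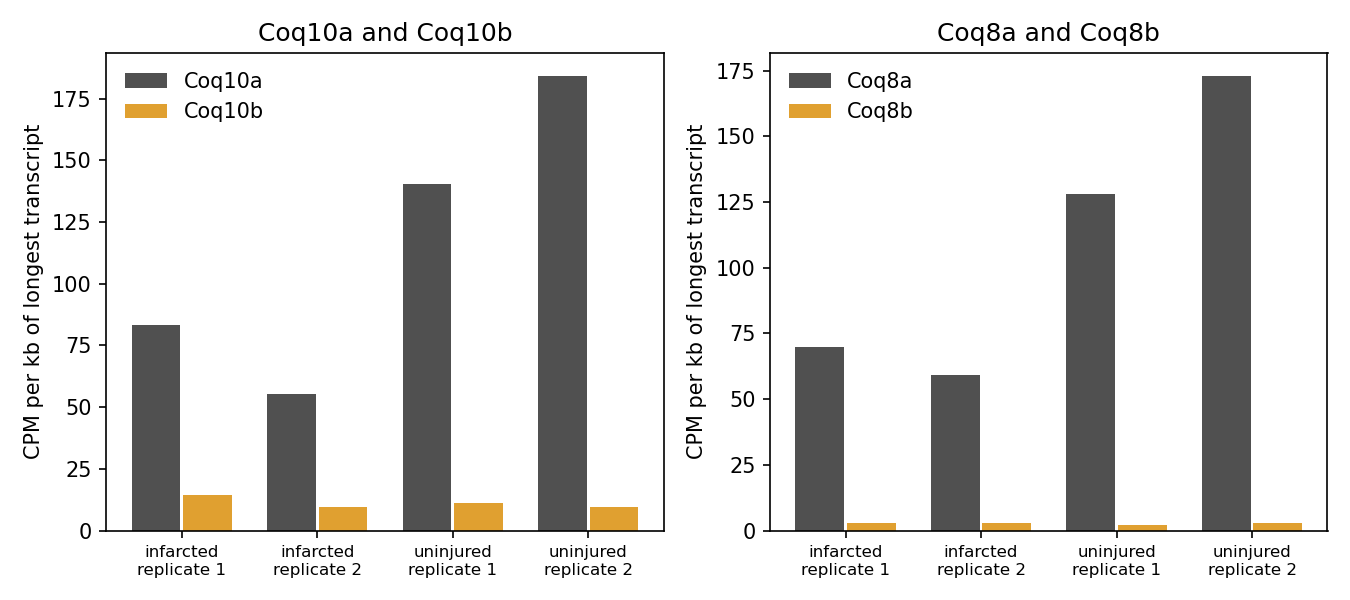
CPM per kilobase of longest transcript in each library for Coq10a with Coq10b (left) and Coq8a with Coq8b (right), infarcted libraries to the left of uninjured ones. The dark bars of Coq10a and Coq8a are shorter in both infarcted hearts, while Coq10b stays between 9.35 and 14.3 and Coq8b between 2.02 and 2.82 CPM per kb.

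Promoter sequences from RefSeq (GRCm38.p6, 250 bases before to 50 after the start) were matched for 7 of the 8 members; Coq5 is named only. The promoters of 4 genes with a lower call are printed beside that of Coq10b, the member without one. They lie at chr5:100674207-100674506 on the minus strand for Coq2, chr1:180195971-180196270 on the minus strand for Coq8a, chr8:94838163-94838462 on the plus strand for Coq9, chr10:128368931-128369230 on the minus strand for Coq10a and chr1:55052520-55052819 on the plus strand for Coq10b. For each gene the listed start nearest to the 5′ end of its span was used. The windows of Coq2 and Coq8a lie wholly inside the gene spans given above. Which start was used in these hearts was not tested. Capitals mark matches, on either strand, to the letters searched for NRF1, NF-Y, SP1 and YY1, and each sequence runs 5′ to 3′ on the gene's strand.
Coq2: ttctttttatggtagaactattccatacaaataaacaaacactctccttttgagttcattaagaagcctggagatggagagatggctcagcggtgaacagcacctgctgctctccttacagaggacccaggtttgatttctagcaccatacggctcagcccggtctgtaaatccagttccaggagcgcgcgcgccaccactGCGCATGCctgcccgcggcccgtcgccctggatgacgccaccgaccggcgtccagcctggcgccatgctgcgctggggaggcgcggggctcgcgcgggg
Coq8a: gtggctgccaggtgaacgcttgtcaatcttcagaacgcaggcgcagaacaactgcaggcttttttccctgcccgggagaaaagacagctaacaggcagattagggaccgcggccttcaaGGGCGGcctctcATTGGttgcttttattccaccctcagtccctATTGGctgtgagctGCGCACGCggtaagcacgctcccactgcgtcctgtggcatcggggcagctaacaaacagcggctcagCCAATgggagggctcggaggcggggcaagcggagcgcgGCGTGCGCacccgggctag
Coq9: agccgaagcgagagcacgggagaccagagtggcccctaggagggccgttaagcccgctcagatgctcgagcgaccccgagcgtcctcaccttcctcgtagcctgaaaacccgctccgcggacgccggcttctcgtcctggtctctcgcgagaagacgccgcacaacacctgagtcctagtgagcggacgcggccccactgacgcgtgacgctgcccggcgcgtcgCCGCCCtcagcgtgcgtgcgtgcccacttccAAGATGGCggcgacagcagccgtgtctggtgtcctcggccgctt
Coq10a: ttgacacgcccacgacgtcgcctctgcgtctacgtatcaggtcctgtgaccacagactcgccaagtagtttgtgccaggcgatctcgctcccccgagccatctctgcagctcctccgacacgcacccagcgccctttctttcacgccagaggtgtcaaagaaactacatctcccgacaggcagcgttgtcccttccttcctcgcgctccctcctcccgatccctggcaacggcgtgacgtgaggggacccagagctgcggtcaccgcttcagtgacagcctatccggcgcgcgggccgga
Coq10b: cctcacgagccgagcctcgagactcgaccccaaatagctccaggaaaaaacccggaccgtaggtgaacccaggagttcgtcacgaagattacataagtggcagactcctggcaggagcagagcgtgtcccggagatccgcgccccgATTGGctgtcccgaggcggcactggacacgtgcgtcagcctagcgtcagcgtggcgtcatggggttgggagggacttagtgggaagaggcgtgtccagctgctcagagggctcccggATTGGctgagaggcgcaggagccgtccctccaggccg

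The 7 motifs searched, on both strands, were those of factors known from promoters of mitochondrial genes. GCGCANGC, the core of the NRF1 site, was found in 2 of the 7 promoters, Coq2 at position -49 from the start and Coq8a at -74 and 32, and in 9.95% of all 32851 promoters. CCAAT, bound by NF-Y, was found in 3, those of Coq7, Coq8a and Coq10b, and in 37.4% of all. GGGCGG, the GC box of SP1, was found in 2, Coq8a and Coq9, and in 35.7% of all. AAGATGGC, the YY1 core, was found in Coq9 at position 7 and in 2.75% of all. CCGGAAG of GABP, AAGGTCA of the ERR receptors and TGACGTCA of CREB were found in none of the 7, and in 8.86%, 4.72% and 1.79% of all. The Coq10a promoter held none of these letters, and that of Coq10b held CCAAT at -104 and 14. The GC content of the member promoters ran from 47.3% for Coq3 to 68.3% for Coq9, with a median of 52.7% over all promoters. These matches describe letters in a window, not binding.

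Genes around the members were described through 4 lists, together called pathway genes here, of which 36 genes are reported. Over these 36 genes 19 were called lower, with a median log2 fold change of -0.79, against 14.6% called lower over all genes tested. Of the 19, 12 came from the list of enzymes that reduce or use ubiquinone. That list does not hold enzymes that make coenzyme Q, so the count is not one of biosynthesis genes alone.

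Among the 8 remaining enzymes of the pathway, 4 were called lower, none higher, and the median log2 fold change was -0.72. Pdss2, a subunit of the synthase that builds the isoprenoid tail, had 12.6 and 10.4 CPM in infarcted hearts and 22.6 and 24.7 CPM in uninjured hearts (-1.04 ± 0.20, edgeR adjusted p = 0.00208). Coq6, a flavoprotein that hydroxylates the ring, had 25.9 and 24.9 CPM in infarcted hearts and 42.2 and 55.9 CPM in uninjured hearts (-0.95 ± 0.20, edgeR adjusted p = 0.00306). In 6 of the 8 genes of this list, Pdss2 and Coq6 among them, both infarcted libraries were below both uninjured libraries. That arrangement was found in 33.8% of all genes tested. Coq4, a component of the COQ protein assembly, had 7.36 and 5.67 CPM in infarcted hearts and 10.2 and 13.9 CPM in uninjured hearts (-0.88 ± 0.24, edgeR adjusted p = 0.0133). Hpdl, an enzyme of ring precursor synthesis known from human cells, was rare, at 1.18 and 1.24 CPM in infarcted hearts and 2.28 and 3.34 CPM in uninjured hearts (-1.22 ± 0.34, edgeR adjusted p = 0.0160).

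Of the mevalonate pathway, which supplies units for the tail and for sterols, 7 genes are reported, with a median log2 fold change of -0.54. Of these, 1 was called lower, a share near the 14.6% of all genes tested. Fdft1, squalene synthase, which directs the pathway to sterols, had 17.6 and 17.2 CPM in infarcted hearts and 28.9 and 39.1 CPM in uninjured hearts (-0.96 ± 0.21, edgeR adjusted p = 0.00363). Fdps, which makes farnesyl diphosphate, and Pmvk, the phosphomevalonate kinase, both had log2 fold changes of -0.57 and were not called (edgeR adjusted p = 0.0752 and 0.0848). Mvd, the mevalonate diphosphate decarboxylase, had 3.48 and 3.55 CPM in infarcted hearts and 4.53 and 5.51 CPM in uninjured hearts and was not called (-0.52 ± 0.26, edgeR adjusted p = 0.144).

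The enzymes that reduce or use ubiquinone had the most calls, 12 lower and none higher of 15 tested, with a median log2 fold change of -0.96. Etfb and Etfa, the subunits of the electron transfer flavoprotein that passes electrons from fatty acid oxidation towards ubiquinone, were both among them. Etfb had 145 and 148 CPM in infarcted hearts and 303 and 539 CPM in uninjured hearts (-1.52 ± 0.27, edgeR adjusted p = 0.00124). Etfa had 227 and 239 CPM in infarcted hearts and 447 and 534 CPM in uninjured hearts (-1.08 ± 0.22, edgeR adjusted p = 0.00248). The infarcted hearts were close to each other in both genes, and the 2 uninjured hearts were farther apart in Etfb. Sdhc, a membrane anchor of complex II, had 143 and 151 CPM in infarcted hearts and 265 and 380 CPM in uninjured hearts (-1.14 ± 0.23, edgeR adjusted p = 0.00238). Dhodh, which makes a pyrimidine precursor and hands its electrons to ubiquinone, had 6.20 and 4.84 CPM in infarcted hearts and 11.1 and 14.0 CPM in uninjured hearts (-1.19 ± 0.23, edgeR adjusted p = 0.00229). The order of these genes depended on the setting. With the length trend removed, log2 fold changes were -0.96 for Etfb, -0.74 for Etfa, -1.13 for Sdhc and -1.25 for Dhodh.

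Of 6 genes of coenzyme Q transport and regulation, 2 were called lower, against 14.6% of all genes tested, and none higher. Their median log2 fold change was -0.52. Oma1, an inner membrane protease, had 18.0 and 14.0 CPM in infarcted hearts and 26.2 and 33.1 CPM in uninjured hearts (-0.89 ± 0.21, edgeR adjusted p = 0.00663). Stard7, a lipid transfer protein that human cells use to carry coenzyme Q out of mitochondria, had 81.6 and 75.0 CPM in infarcted hearts and 128 and 141 CPM in uninjured hearts (-0.78 ± 0.19, edgeR adjusted p = 0.00731). Parl, the protease that cleaves STARD7, and Pptc7, a mitochondrial phosphatase, had log2 fold changes of -0.57 and -0.47 and were not called (edgeR adjusted p = 0.0511 and 0.0841).

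**Figure D3:**
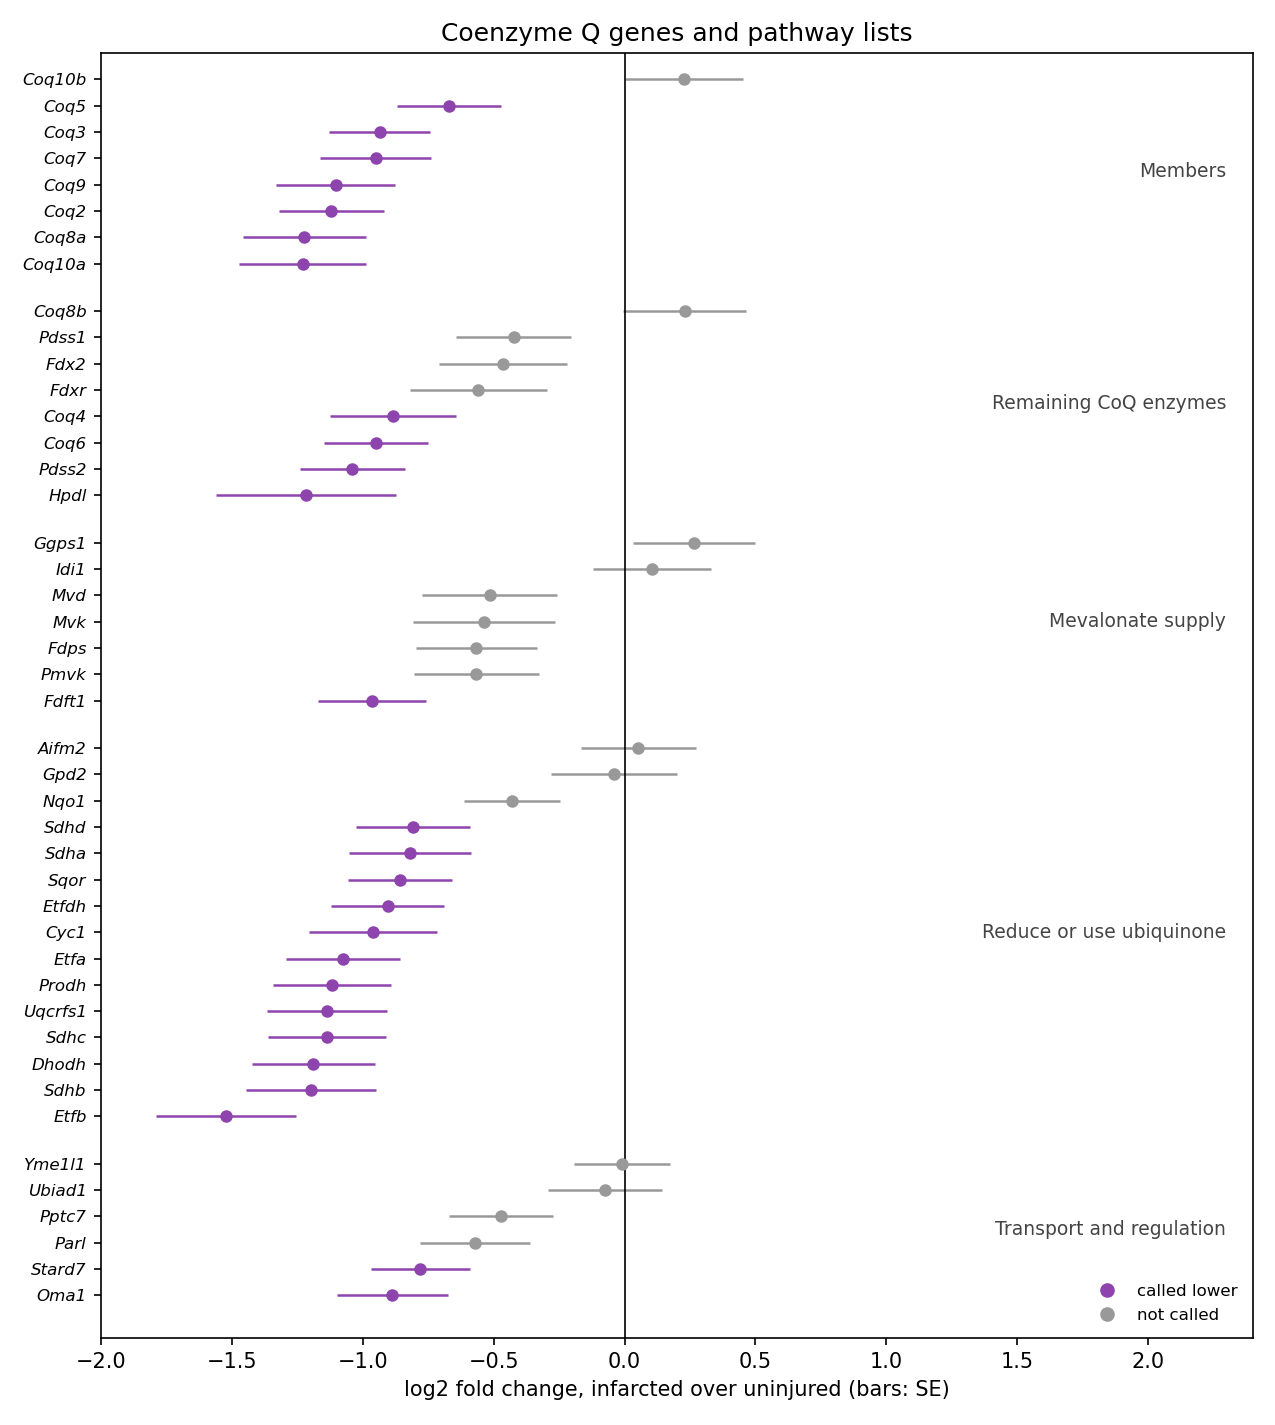
Log2 fold change, infarcted over uninjured, with its SE for the 8 coenzyme Q genes and 36 genes of the 4 pathway lists; purple points were called lower and grey points were not called. In this fit of all libraries the lowest point is Etfb at -1.52, an electron transfer flavoprotein subunit placed in the list of enzymes that reduce or use ubiquinone.

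Exon use within the members was read from the deposited percent inclusion values and their reads. Of 44 alternative exon and splice site events listed for the members, 11 had enough reads of both forms to test. None was called by the edgeR test of the form-by-group interaction, and none of the 8581 events of the whole table was called (0%). At an unadjusted p below 0.05 the test counted 0 member events and 555 of all events, while limma on the logit counted 1 member event and 619 of all events and called 0 after adjustment. Of 23 member exons with at least 10 reads in every library, 17 were included at 98% or more in every library and 3 at 2% or less. Coq9 exon 6 of 9, a coding exon of 105 nt (mm9 chr8:97375751-97375855), was the deepest of the 11 tested events, included at 98.09% and 98.22% in infarcted hearts and at 98.12% and 98.15% in uninjured hearts. The 95% Wilson intervals were 97.1 to 98.7% and 97.1 to 98.9% in infarcted hearts and 97.4 to 98.6% and 97.6 to 98.6% in uninjured hearts. These intervals cover counting error only, as reads without molecular identifiers are not independent molecules.

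Coq2 exon 2 of 7, a coding exon of 167 nt (mm9 chr5:101096911-101097077), was the least fully included of the tested exons that were mostly included. Its inclusion was 91.06% and 89.80% in infarcted hearts and 95.64% and 88.50% in uninjured hearts, from 40 and 42 reads and from 98 and 118 reads, and the groups overlapped (edgeR adjusted p = 0.976). The Wilson intervals of its infarcted libraries, 77.0 to 96.0% and 77.9 to 96.2%, were wide at this depth, against 90.0 to 98.4% and 81.1 to 92.8% in uninjured libraries. Coq5 exon 5 of 7, a coding exon of 89 nt (mm9 chr5:115744836-115744924), was included at 97.56% and 98.20% in infarcted hearts and at 100% and 99.36% in uninjured hearts. Its groups did not overlap, but their intervals did, at 93.8 to 99.0% and 93.6 to 99.5% in infarcted hearts and 98.4 to 100% and 97.7 to 99.8% in uninjured hearts. The difference was not called (edgeR unadjusted p = 0.0661, adjusted p = 0.767).

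The 5 genes whose profile over the 4 libraries was most like the mean profile of the members were Unc45b, Smarcd1, Akr1b10, Ank1 and Nudt2, by Euclidean distance between centred log2 CPM among 9502 genes with a mean of at least 5 CPM. The distances ran from 0.0416 for Unc45b, a myosin chaperone, to 0.0683 for Nudt2, a nucleotide hydrolase. Unc45b had 108 and 94.6 CPM in infarcted hearts and 169 and 208 CPM in uninjured hearts. Smarcd1, a chromatin remodelling subunit, had 26.2 and 22.2 CPM in infarcted hearts and 39.6 and 47.0 CPM in uninjured hearts. The libraries compared are also those of the group comparison, so this likeness is a description.

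The calls depended on 1 uninjured heart. Without uninjured replicate 2, edgeR called none of the members and 0.0560% of all genes lower, although the log2 fold changes of the 7 genes stayed between -1.03 and -0.65, with 7 at an unadjusted p below 0.05. DESeq2 on the same 3 libraries called 5 members lower, Coq2, Coq3, Coq8a, Coq9 and Coq10a, and 4.47% of all genes, with Coq5 and Coq7 not called (adjusted p = 0.0951 and 0.0795). With that heart left out, the lone uninjured heart is assumed to vary like the infarcted ones. Scaling by library totals alone moved the median of all genes by 0.35 on the log2 scale, and 6 members and 5.65% of all genes were then called lower, with a member median of -0.68. All-gene calls were 786 lower and 4386 higher under that scale, against 2037 lower and 2546 higher with TMM factors. With the length trend removed, log2 fold changes were -0.89 for Coq10a, -0.87 for Coq2, -0.86 for Coq9 and -0.85 for Coq3. They were -0.93 for Coq7, -1.30 for Coq8a and 0.39 for Coq10b. The longest transcripts of Coq10a, Coq2, Coq9, Coq5 and Coq10b, from 1434 to 2119 nt, were below 2252 nt, the lower quartile over genes tested. Of the pathway genes named above, Coq4, Hpdl, Oma1 and Stard7 lost their calls on library totals (edgeR adjusted p = 0.0888, 0.0673, 0.0516 and 0.0956). Coq4, Oma1 and Stard7 also lost them without infarcted replicate 2 (edgeR adjusted p = 0.1000, 0.0742 and 0.0731). Parl, not called in the fit of all libraries, was called lower with RLE size factors (edgeR adjusted p = 0.0414) and by DESeq2 (adjusted p = 0.0389).

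**Figure D4:**
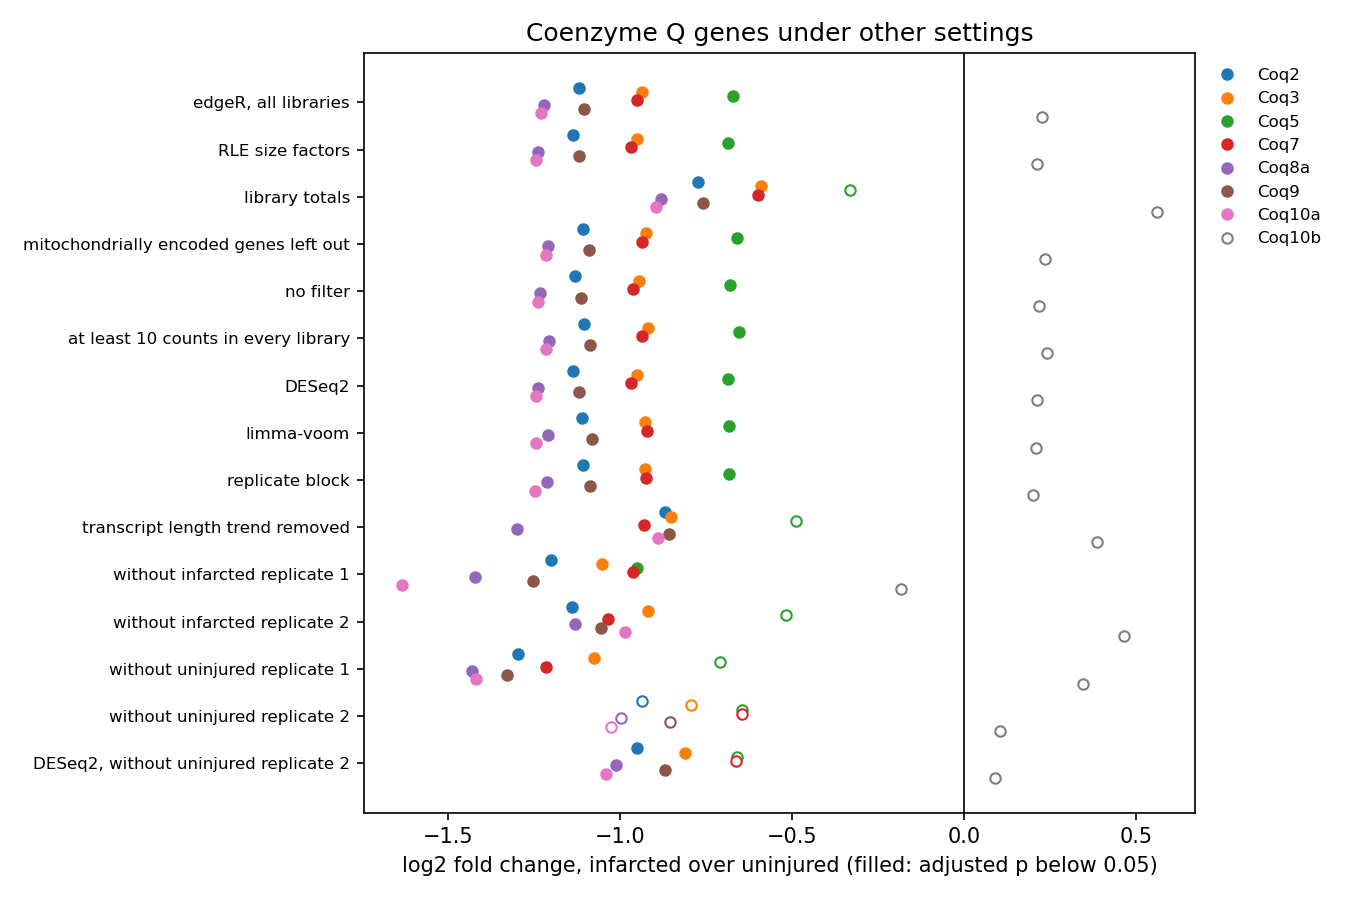
Log2 fold change, infarcted over uninjured, of each coenzyme Q gene under each setting, with filled points for an adjusted p below 0.05 and open points otherwise. All 7 genes other than Coq10b lie below 0 in each line shown, their points are open without uninjured replicate 2 in edgeR, and Coq10b crosses 0 to -0.18 without infarcted replicate 1.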

How the data were processed

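Polyadenylated RNA from 2 infarcted and 2 uninjured hearts was sequenced as single-end reads of 50 bp on a GAII, per the labels' protocols. The authors deposited raw counts per Ensembl gene, whole numbers with no normalization, and a table of percent inclusion per splicing event with its inclusion and exclusion reads. The build is mm9, per the submitters' processing notes; aligner, counter and strandedness: not given in the sources used here. Percent values matched their reads within 0.05 points in 99.99% of values. Groups came from the labels. The p-values rest on a spread between these samples that was estimated in part by sharing it over genes. The common biological coefficient of variation was 19.3%.

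Counts were tested in edgeR 4.0.16 (R 4.3.3) with TMM factors, filterByExpr, robust quasi-likelihood F-tests and 2 residual degrees of freedom; the SE is the absolute log2 fold change over the square root of F. DESeq2 1.42.0, limma 3.58.1 and other scales and filters were alternatives. Splicing events needed at least 10 reads in every library and 5 of each form. Symbols, gene positions and transcript lengths came from GENCODE M21 (GRCm38), which matched 20450 genes; mm9 exons were matched to it by exon and intron lengths, with no coordinates converted. Scripts were tested on simulated data.

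Members and lists were chosen with earlier results of these data known, and motif letters with the sequences in view. All members, the 4 genes of each list with the smallest p and the 5 most alike genes are named. Cdc42bpa and Ciapin1 were named for their overlap. Hmgcs1 and Choldh were not analysed here; 1 other gene of the lists is not reported here and is left out of the list counts, medians and plots.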

Additional observations from a re-analysis of the deposited data

How the results depend on the processing

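Members were called lower 7 times of 8, and 6 to 7 times under each other scaling, filter, tool, length correction and stricter threshold tried; leaving out 1 library gave 0 to 7. No member was called higher under any setting. Pathway genes called lower numbered 10 with library totals as the scale and 0 to 22 with 1 library left out, the 0 being edgeR without uninjured replicate 2 (18 at an unadjusted p below 0.05), where DESeq2 called 12. Over all genes, calls were 786 lower and 4386 higher with library totals and 963 lower and 1573 higher at an adjusted p below 0.01. In edgeR with 1 library left out they ranged from 8 to 1824 lower and from 102 to 2144 higher, the lowest without uninjured replicate 2, which had 4299 genes at an unadjusted p below 0.05. DESeq2 with 1 library left out, added after seeing the data, called 1170 lower and 1360 higher without infarcted replicate 1, 851 and 1303 without infarcted replicate 2, 1721 and 1823 without uninjured replicate 1, and 602 and 1157 without uninjured replicate 2. Fewer samples enter these fits; otherwise the cause was not tested.

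Of the single genes, Coq10b reversed to -0.18 (edgeR) and -0.15 (DESeq2) without infarcted replicate 1, against 0.46 (edgeR) and 0.49 (DESeq2) without infarcted replicate 2 and 0.56 with library totals, and Coq8b to -0.0038 (DESeq2) without uninjured replicate 1, neither called in any setting. No splicing event of a member was called under any setting. The labels give both groups the same replicate numbers, but the mice differ. Over genes, the replicate 1 minus replicate 2 differences of the 2 groups correlated at 0.108. With 1 such difference per group, this cannot settle whether the numbers mark a shared batch. With the replicate block, 7 members and 20 pathway genes were called lower, and 2340 genes lower and 2950 higher overall.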
